A study of Mus musculus with 9 samples.

Results

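The 300 genes with the brightest polysomal signal in mouse oocytes at the germinal vesicle (GV) stage were ranked and described by function. The GV stage is the prophase arrest of the first meiotic division, named for the large nucleus that is still intact. Genes were ranked by the mean intensity of the 3 GV arrays, a gene with several probe sets being represented by its brightest on those arrays, and the first 300 of 18193 genes (1.65%) were taken. The ranking chose the members, so their high values are a description and carry no test. A panel of 156 genes known from oocytes was then read off the same arrays to see which were near background, set at a mean intensity below 16.

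Per the labels, mice received PMSG, a gonadotropin that makes follicles grow, and GV oocytes were collected 48 h later, with 0 h of the ovulatory hormone hCG. Polysome-bound mRNA was purified, amplified with a kit for degraded RNA and hybridised to Affymetrix Mouse Genome 430 2.0 arrays. The series holds 9 arrays over 3 stages, and the 6 arrays of the other 2 stages were not used here. Strain, age of the mice and oocyte numbers are not stated there. The labels call the 3 GV samples biological replicates, but nothing says that they came from separate animals, so the spread between them may in part be technical.

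A polysome is an mRNA carrying several ribosomes, and mRNA bound to polysomes is the fraction taken to be in translation. A fully grown oocyte makes almost no new mRNA and depends on messages stored during growth. During growth it builds the zona pellucida, the glycoprotein coat that sperm bind, and it secretes factors that act on the surrounding granulosa cells. It also lays down the proteins, ribosomes and mitochondria that the embryo inherits.

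Array intensity is not a count of mRNA molecules: probe sets differ in how well they hybridise, so a rank here orders array signals. The signal also joins the amount of an mRNA and its share on polysomes, and in a bulk sample fewer cells and less RNA per cell cannot be told apart. The array medians over probe sets were 12.39, 12.41 and 13.03, between 53.2% and 54.5% of probe sets lay below 16, and Pearson's r between arrays over probe sets was 0.853 to 0.875 (probe sets are not replicates). Over genes, the median of the means was 47.2. A mean of 1000 or more was reached by 2043 genes (11.2%), and 6361 genes (34.96%) lay below 16.

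The arrays carried the marks of oocytes. All 12 oocyte markers were measured and 10 were among the 300 brightest genes, the lowest being Mos at 929 ± 329 (SD, n = 3, as for every ± below). Their summed signal was 72536, 76104 and 73350 on GV 1, GV 2 and GV 3. Of 25 markers of granulosa, cumulus and theca cells, 22 were measured, 0 reached 1000, and their summed signal was 1386, 1841 and 1529. Of the 22, 7 lay below 16 (31.8%, beside 34.96% of all genes), so they were near background about as often as genes in general. The median of the 22 means was 29.5, with the FSH receptor Fshr near the low end at 3.96 ± 5.01 and Gja1 near the high end at 200 ± 125. The highest of the 22 was Cyp11a1, the enzyme that starts steroid synthesis, at 531 ± 351, while its other 2 probe sets had means of 23 and 6.56. Blood, immune and endothelial markers (11 of 12 measured, 7 or 63.6% below 16) were highest at Pecam1 with 190 ± 104. Genes of other tissues (9 of 10 measured, 5 or 55.6% below 16) were highest at the sperm protamine Prm1 with 328 ± 103.

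The members spanned a narrow range of signal. Means ran from 10449 at Bud31 down to 3614 at Stx5a, a 2.89-fold range, and the 300 genes held 21.8%, 22.4% and 22.4% of the summed gene signal of the arrays. The coefficient of variation (SD divided by mean) had a median of 15.3% among them, against 26.2% for the other 1743 genes at 1000 or more and 51.4% for all genes. In 95 members it was below 10%, and in 25 it was over 50%. The actin-severing protein Cfl1 had the smallest, at 0.957%, with 6286, 6392 and 6289, and Slbp, which binds the end of histone mRNAs, had 2.09%, with 3916, 4025 and 3863. Next were the cholesterol carrier Npc2 at 2.37%, the oocyte protein Tle6 at 2.58% and the lactate dehydrogenase Ldhb at 2.79%.

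**Figure D1:**
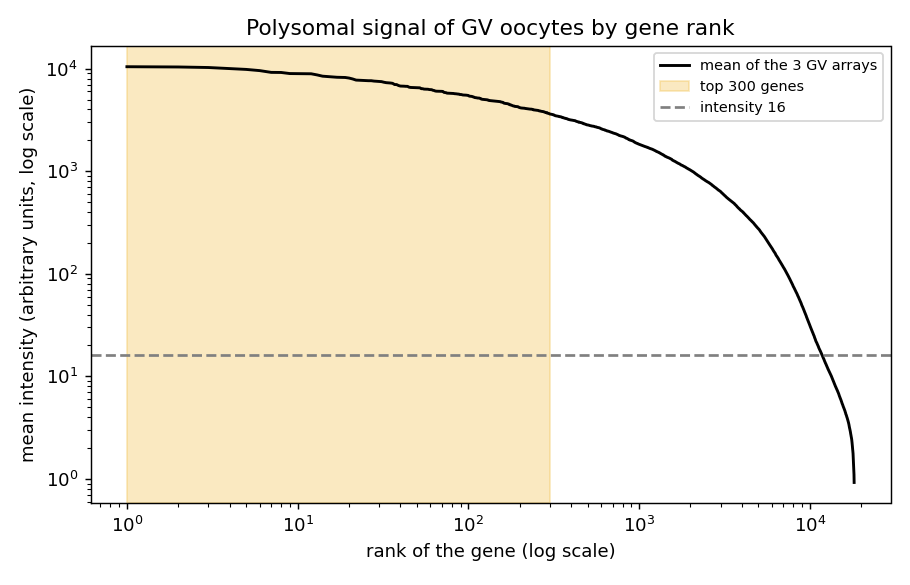
Mean intensity of the 3 GV arrays (arbitrary units, log scale) of the 18193 genes against their rank (log scale), with the top 300 shaded and the intensity of 16 dashed. The curve falls from 10449 at rank 1 to 3614 at rank 300 with no step, and 6361 genes lie below the dashed line.

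The border at rank 300 was not sharp. Just inside lay the centrosome protein Pcnt (3618 ± 1499) and the Golgi syntaxin Stx5a (3614 ± 830), and just outside the ribosomal protein Rpl10a (3607 ± 1015) and Sypl (3606 ± 1310). For 131 members the mean minus 1 SD fell below the signal at rank 300, and for 250 genes outside it the mean plus 1 SD lay above it. None of the 299 neighbouring pairs in the order differed by more than the sum of their SDs. Sorting puts close means side by side, so this count was largely fixed in advance and is no measure of the border. On single arrays, 235, 234 and 225 members were among that array's own 300 brightest genes. In all, 152 were so on all 3 arrays, 90 on 2 and 58 on 1, and 289 (96.3%) were among the 1000 brightest of every array. The same 3 arrays chose the members, so these counts are in part built in. When 300 genes were chosen on 2 arrays, 201, 203 and 209 were among the 300 brightest of the array left out (GV 1, GV 2 and GV 3). Leaving out 1 array in turn kept 262 to 269 members, and 209 members were kept in each of these 3 lists.

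In the 5 widest spreads among the members, 1 array lay apart from the other 2. Tacc3, a protein of spindle microtubules, gave 18903, 3501 and 2727 (rank 15 by the mean, 310 by the median of the arrays). GV 1 alone was high on that probe set, while the gene's second probe set gave 7054, 6882 and 8155. Without GV 1 the second probe set was the brighter and stood for the gene, at rank 30. Ubqln1, a ubiquitin-binding shuttle to the proteasome, gave 1191, 1266 and 14060 (rank 98), high on GV 3 alone, while its second probe set gave 2536, 3024 and 2702. Vipas39, of endosome traffic, gave 5539, 126 and 7011, low on GV 2 alone, and its other probe sets had means of 201 and 4.07. The small GTPase Arl3 (2212, 1482 and 7733) and the transcription repressor Mxd3 (7337, 1516 and 2344) were high on GV 3 and on GV 1 alone. The other 2 probe sets of Mxd3 had means of 11.3 and 9.05.

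**Figure D2:**
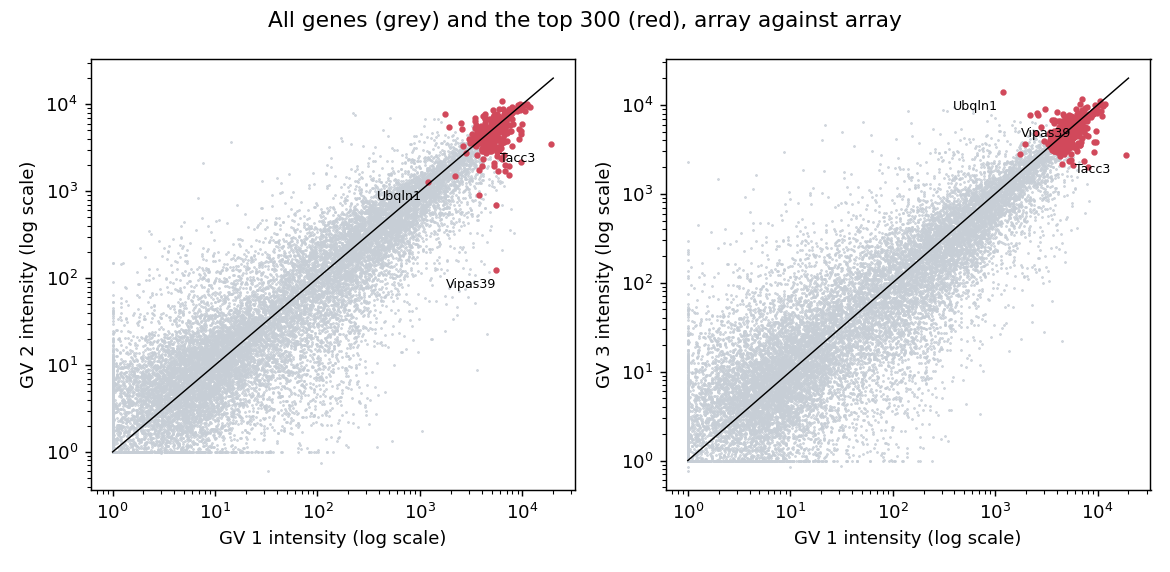
Intensity of each gene on GV 2 (left) and GV 3 (right) against GV 1, both axes on a log scale, with all genes in grey, the 300 members in red and the line of equality. Most members lie close to the line at the upper right, while Tacc3, Ubqln1 and Vipas39 lie apart because 1 array differs from the other 2.

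Among the 30 brightest genes were proteins of the egg coat, of the subcortical maternal complex and of general cell growth, side by side. In order these were Bud31, Rpl35, Jpt1, Ldhb, Ooep, Tmsb10, Rps29, Pebp1, Dppa3, Skp1, Gdf9, Padi6, Zp3, Pttg1, Tacc3, Nlrp5, Ywhae, Sod1, Hspa8, Elobl, Rps28, Nlrp14, Uchl1, Zp2, Dnmt1, Hcfc1r1, Spin1, Sub1, Rplp2 and Pum3. Of these, 29 were among the 300 brightest on all 3 arrays, Tacc3 being the exception. Of the 100 brightest genes, 95 were. Both counts are in part built in, because the same arrays gave the order. Some Affymetrix probe sets carry a suffix (_a, _s or _x) that marks probes shared by several transcripts, of the same gene or of others. Without such probe sets 8 of the 30 left the top 300: Bud31, Rpl35, Tmsb10, Pttg1, Tacc3, Hspa8, Sub1 and Pum3. Another 8 (Dnmt1, Jpt1, Ldhb, Pebp1, Rplp2, Rps28, Rps29 and Ywhae) have no other kind of probe set, so no rank without it.

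**Figure D3:**
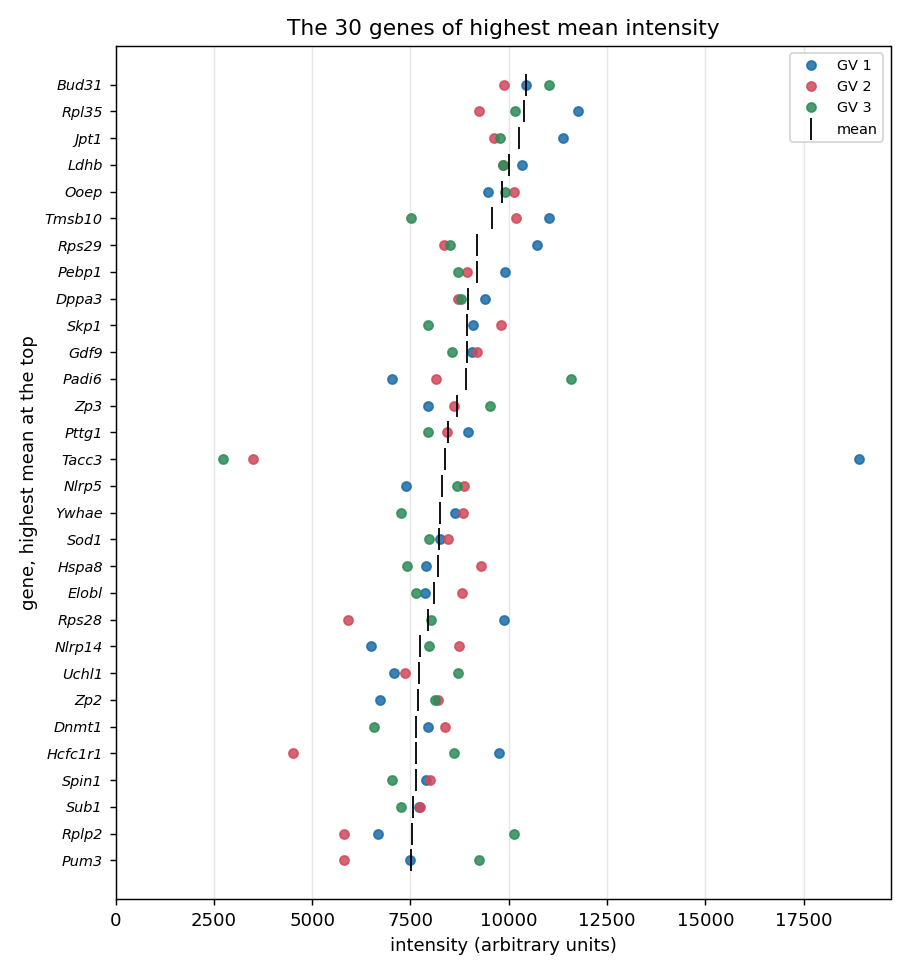
Intensity (arbitrary units) of the 30 genes of highest mean on GV 1, GV 2 and GV 3 (coloured points), with the mean as a bar. The points of most genes overlap those of their neighbours in the order, and the 3 points of Tacc3 lie at 18903, 3501 and 2727.

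The brightest gene was Bud31, a splicing factor, with 10437, 9892 and 11019 (10449 ± 564). Its place rests on a single probe set: the other 2 had means of 1584 and 221. Ldhb, the heart-type lactate dehydrogenase subunit, gave 10337, 9852 and 9854 (10014 ± 280), and its 3 other probe sets had means of 9080, 8965 and 8166. Tmsb10, a thymosin that holds actin monomers, gave 11026, 10192 and 7502 (9574 ± 1842). The function of Jpt1 (11378, 9634 and 9785; 10265 ± 966) is not described here. Pebp1, an inhibitor of Raf kinase signalling, gave 9899, 8940 and 8713 (9184 ± 630).

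By patterns in the gene symbols, 195 of the 300 members (65%) fell into 23 classes. No class was tested for enrichment, and each count is given beside the number of its members measured. The top 300 held 1.65% of all genes measured and 0.841% of the 12487 genes outside every class.

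**Figure D4:**
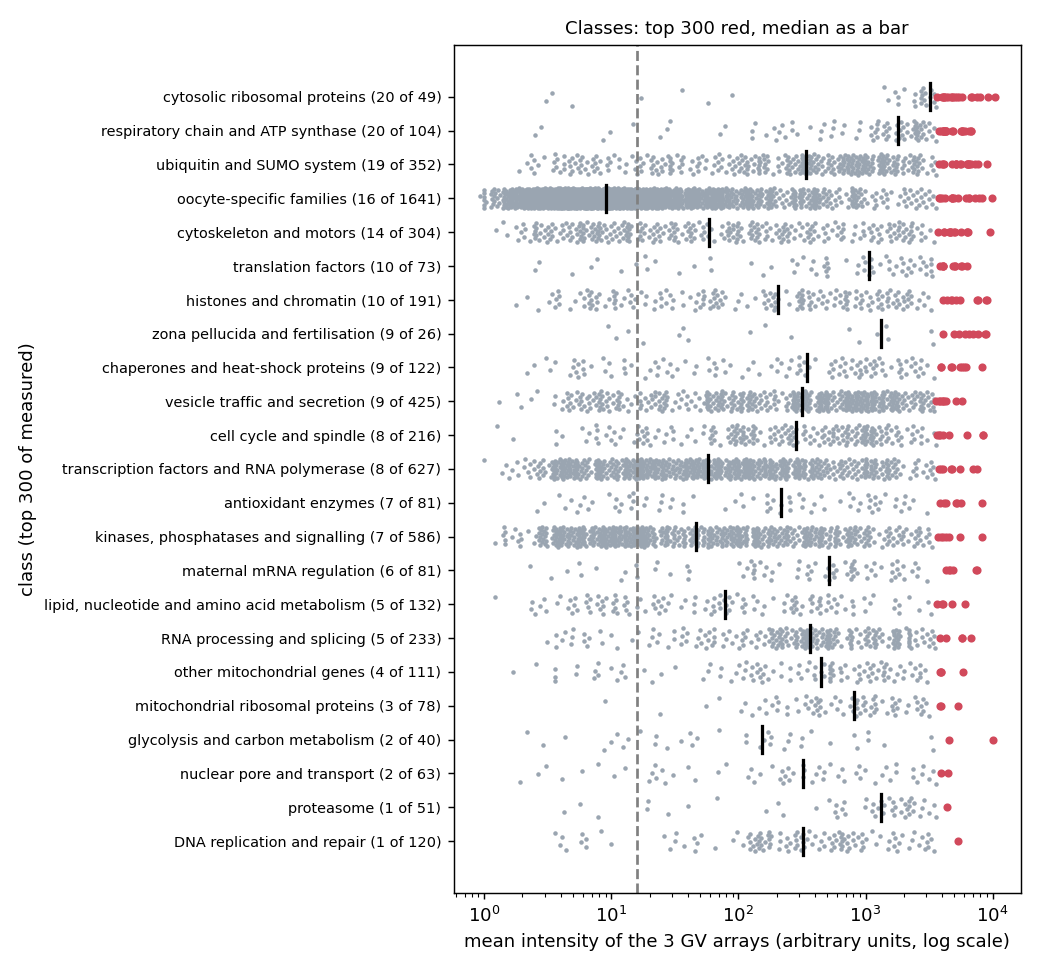
Mean intensity of the 3 GV arrays (arbitrary units, log scale) of every measured gene in the 23 classes, with members of the top 300 in red, other genes in grey, the median of a class as a black bar and an intensity of 16 dashed. The medians of cytosolic ribosomal proteins (3217) and of the respiratory chain (1792) lie far to the right of those of transcription factors (57.9) and of the oocyte-specific families (9.12). The last class also takes symbols of predicted genes, and it includes Ooep at 9835.

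The zona pellucida and fertilisation class put 9 of its 26 measured members among the brightest 300. The 3 zona proteins measured were Zp3 with 7942, 8616 and 9525 (8694 ± 794, rank 13), Zp2 with 6717, 8211 and 8120 (7683 ± 838, rank 24) and Zp1 with 5072, 5886 and 5498 (5485 ± 407, rank 99). The lowest of these 9 values was the 5072 of Zp1 on GV 1. Gdf9, the growth factor by which the oocyte drives granulosa cells, gave 9077, 9193 and 8546 (8939 ± 345, rank 11), and its partner Bmp15 gave 5856, 6655 and 5528 (6013 ± 579, rank 68). The other 4 were the secreted oocyte proteins Oosp2 (6999 ± 295) and Oosp1 (4035 ± 630), Astl (6550 ± 325) and Izumo1r (4982 ± 701). Astl is ovastacin, the protease that cleaves ZP2 after fertilisation, and Izumo1r is Juno, the egg receptor for sperm. The class median was 1333, and 3 members lay below 16, namely the sperm-associated Spag6, Spag9 and Spag17, which are named after their values were seen.

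The 250 bases before the start of Zp3 are shown because E-boxes (CANNTG) of zona genes are known as binding sequences of the oocyte factor FIGLA. The sequence is from RefSeq (GRCm38.p6, chr5:135979855-135980104, plus strand, 5′ to 3′), with the 3 matches to CANNTG in capitals.
Zp3: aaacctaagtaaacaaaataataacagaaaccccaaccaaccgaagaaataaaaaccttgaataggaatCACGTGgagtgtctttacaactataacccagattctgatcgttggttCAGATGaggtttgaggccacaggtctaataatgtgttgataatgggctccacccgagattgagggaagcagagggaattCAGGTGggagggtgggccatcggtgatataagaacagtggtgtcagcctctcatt
CANNTG reads the same on both strands in its fixed letters, and it is frequent: 72.1% of all 27025 RefSeq promoter windows, from 250 bases before to 50 after a start, held it. Among the members, 244 of 300 had a window, and 66.4% of those held CANNTG. Of the 18 members with a window in the zona and oocyte-specific classes, 16 held it (88.9%). A match is a description of letters and not a site. FIGLA itself, as Figla, gave 1489, 820 and 1178 (1163 ± 335).

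The oocyte-specific families put 16 of 1641 in the top 300. The class also takes symbols of predicted genes, and 65.3% of it lay below 16, so its median is not that of known oocyte families. The listed panels of oocyte Nlrp genes and of Oosp and Oog genes had medians of 3810 and 3320. Among the 16 are the placeholder symbols Gm12338, C86187 and AU015836, named after their values were seen. Ooep, Nlrp5, Tle6 and Zbed3 belong to the subcortical maternal complex, a protein assembly under the egg surface that the early embryo needs. Ooep gave 9461, 10146 and 9900 (9835 ± 347, rank 5), Nlrp5, also called MATER, 7396, 8857 and 8676 (8310 ± 797, rank 16), and Tle6 7125, 7462 and 7154 (7247 ± 187, rank 35). Zbed3 gave 6157 ± 1132, and Padi6, placed by its symbol among the chromatin genes but known from the oocyte's cytoplasmic lattices, gave 7021, 8155 and 11576 (8917 ± 2372, rank 12). Khdc3, the sixth measured gene of the complex, was below the top 300 at 2752 ± 87.5 (rank 537). The 6 measured genes of the complex thus lay at ranks 5 to 537.

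Of the 9 other oocyte Nlrp genes measured, 5 were in the top 300. Nlrp14 gave 7739 ± 1138, Nlrp9b 5354 ± 881, Nlrp4f 4255 ± 168, Nlrp4a 3865 ± 348 and Nlrp9a 3810 ± 357. The lowest, Nlrp4c, gave 198 ± 49.8. The paralogues Oas1c (6529 ± 720) and Oas1e (6506 ± 1044) come from a family of oligoadenylate synthetases and are neighbours in the genome. So are Nlrp4a and Nlrp9a, Oosp1 and Oosp2, and Ooep and Dppa5a. Where such neighbours are close paralogues, their probe sets may share target RNA, and their values are then uncertain as values of single genes. The sequences of these pairs were not compared.

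A longer row of neighbours held Fbxw genes, which code for proteins with an F-box, the part that binds Skp1, and WD repeats. F-box proteins give SCF ubiquitin ligases their targets. RefSeq lists 15 Fbxw genes in 1 row with no other coding gene between them. Of the 9 measured, 8 were in the top 300: Fbxw24 (7275 ± 566, rank 34), Fbxw21 (6546 ± 351), Fbxw19 (6382 ± 561), Fbxw18 (5594 ± 243), Fbxw16 (5177 ± 452), Fbxw22 (5169 ± 718), Fbxw13 (5119 ± 1627) and Fbxw14 (4815 ± 855). The ninth, Fbxw27, lay at rank 310 with 3572 ± 219 and is named after its value was seen. The lowest single value among the 9 was 3419, whereas none of the 9 Fbxw genes measured elsewhere in the genome was in the top 300, the highest being Fbxw11 at 2587. These genes are close copies, and cross-hybridisation between them cannot be told apart from signal of each.

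The 100 bases before the start of the 6 measured genes of this row that have a RefSeq window show how alike they are. They lie on the minus strand of GRCm38.p6 and are printed 5′ to 3′, with TTTAAAA and CAGCTG in capitals: Fbxw21 at chr9:109162023-109162122, Fbxw14 at chr9:109287677-109287776, Fbxw16 at chr9:109449141-109449240, Fbxw19 at chr9:109495855-109495954, Fbxw24 at chr9:109626060-109626159 and Fbxw18 at chr9:109702701-109702800.
Fbxw21: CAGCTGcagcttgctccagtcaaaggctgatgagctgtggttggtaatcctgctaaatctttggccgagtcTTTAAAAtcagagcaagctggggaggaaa
Fbxw14: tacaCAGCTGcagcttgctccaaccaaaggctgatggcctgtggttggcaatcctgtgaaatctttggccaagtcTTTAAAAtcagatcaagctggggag
Fbxw16: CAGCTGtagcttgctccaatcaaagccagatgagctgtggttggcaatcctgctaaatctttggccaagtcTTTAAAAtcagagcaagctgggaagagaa
Fbxw19: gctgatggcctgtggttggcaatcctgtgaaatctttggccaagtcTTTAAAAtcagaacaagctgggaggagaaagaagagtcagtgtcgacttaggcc
Fbxw24: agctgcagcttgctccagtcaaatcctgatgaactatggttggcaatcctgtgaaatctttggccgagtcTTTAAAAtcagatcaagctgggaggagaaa
Fbxw18: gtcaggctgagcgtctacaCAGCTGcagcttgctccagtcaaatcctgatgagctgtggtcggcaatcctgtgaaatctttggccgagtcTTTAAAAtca
Over the whole windows of 300 bases, the 15 pairs were 78% to 92% identical, with a median of 87%. Against Fbxw23, a gene of the row that was not measured, identity was 56% to 58.3%. The other unmeasured genes of the row with a window were 75% (Fbxw20 with Fbxw19) to 97.7% (Fbxw28 with Fbxw14) identical to the measured ones. The likeness is thus not particular to the measured genes. TTTAAAA, searched on the gene's strand within 40 bases before the start, was there in 5 of the 6 and in 0.644% of all windows; in Fbxw19 it lies further upstream. CAGCTG, a form of CANNTG, was in the 250 bases before the start of 6 of 6. Of all windows, 16.1% held it on either strand, counted over the whole 300 bases and so over a longer stretch.

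In SCF ligases in general, Skp1 joins the F-box protein to the scaffold Cul1, which carries the RING subunit Rbx1. Skp1 gave 9085, 9801 and 7959 (8948 ± 929, rank 10), and Cul1 gave 4121 ± 684. Rbx1 gave 6.53, 4.26 and 10.75 (7.18 ± 3.29), below 16 on every array. Such a low value cannot be told apart from a probe set that does not hybridise well, and probe sets with several symbols were not ranked. Cul1 and Rbx1 are named after their values were seen. In all, 19 of 352 genes of the ubiquitin and SUMO system were in the top 300, of which 8 were the Fbxw genes. Uchl1, a ubiquitin hydrolase known as an abundant oocyte protein, gave 7078, 7351 and 8700 (7710 ± 869, rank 23). Survivin, Birc5, which the symbol pattern put here but which serves the chromosomal passenger complex, gave 6725 ± 523, and the ubiquitin ligase Rnf114 gave 6533 ± 692. Elobl, an elongin B paralogue that no class took, gave 7863, 8810 and 7633 (8102 ± 624, rank 20).

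The cytosolic ribosomal proteins put 20 of 49 measured members in the top 300, and the median of the class was 3217. Rpl35 gave 11774, 9239 and 10152 (10388 ± 1284, rank 2), Rps29 10726, 8363 and 8519 (9203 ± 1322, rank 7) and Rps28 9878, 5920 and 8019 (7939 ± 1980, rank 21). Rplp2, a protein of the ribosomal stalk, gave 6678, 5807 and 10141 (7542 ± 2293), followed by Rps20 (6849 ± 1360) and Rpsa (6748 ± 1208). Of the 20, 19 were read by probe sets with a shared suffix. Without such probe sets 6 ribosomal genes were in the top 300, and Rpl35 had only a probe set with a mean of 1.48, while its 5 with a shared suffix had means of 7344 to 10388. The counting also leaves out 46 bright probe sets that carry a ribosomal protein symbol beside other symbols.

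Messages of ribosomal proteins are known to begin with a C and a run of pyrimidines, the motif through which mTOR signalling controls their translation. The starts of the 4 of 17 ribosomal members with a RefSeq window that begin with C and at least 4 further bases C or T are shown from 15 bases before to 20 after the start, 5′ to 3′, with the run in capitals. Their positions in GRCm38.p6 are chr2:39005112-39005146 (minus strand), chr7:141447636-141447670 (plus), chr11:114668565-114668599 (plus) and chr19:6057932-6057966 (plus). Rpl38 (5755 ± 1255) and Fau (4461 ± 944) are named for these starts.
Rpl35: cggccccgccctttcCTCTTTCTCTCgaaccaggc
Rplp2: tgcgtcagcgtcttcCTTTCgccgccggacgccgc
Rpl38: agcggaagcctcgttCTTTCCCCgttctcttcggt
Fau: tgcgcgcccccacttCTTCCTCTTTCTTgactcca
Such a start was found in 3.69% of the 244 members with a window, in 2.37% of the 14452 measured genes with one and in 0 of the 18 members of the zona and oocyte-specific classes. The other members with it were Ldhb, Hmgn1, Ndufb11, Paip1 and Morf4l2. A start read from the annotation may lie some bases from the start used in oocytes, so the absence of the run here says only that it is not in this window.

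Base composition around the start lay apart between the oocyte classes and the ribosomal proteins. The ratio of observed to expected CpG had a median of 0.232 over the 18 windows of the oocyte classes and 0.909 over the 17 of ribosomal proteins. It was 0.768 over the 244 windows of the members, 0.822 over the other genes at 1000 or more and 0.674 over all measured genes. A ratio below 0.4 was found in 13 of the 18 (72.2%), in 0 of the 17 and in 16.8% of all members with a window, beside 29.3% of all measured genes with a window and 50.98% of all windows. The median GC content was 44.8% in the oocyte classes, 56% in the ribosomal proteins and 58.8% in all members. TAATTG, known as an element bound by the oocyte homeobox factor NOBOX and searched on both strands, was in 4 of the 18 windows (22.2%), in 7.79% of the members' and in 8.15% of all. These values describe classes set by symbol patterns, which also take predicted genes. The classes were chosen with ranks in view, and the values were not tested.

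The respiratory chain and ATP synthase put 20 of 104 in the top 300, and 70 of the 104 reached 1000. Atp5a1, the alpha subunit of the ATP synthase, gave 6108, 7234 and 6943 (6762 ± 584, rank 41), and the complex I subunit Ndufb11 gave 6958, 6533 and 6690 (6727 ± 214). Cytochrome oxidase subunits followed with Cox7a2 (9646, 4924 and 5109; 6560 ± 2674), Cox5b (6058 ± 938), Cox6c (5870 ± 794) and Cox6a1 (5773 ± 679). Cox7a2 was high on GV 1 alone. Without GV 1 the class count was 13, and without GV 2 or GV 3 it was 21 or 18. Other mitochondrial genes numbered 4 of 111 (2 without GV 1), with Chchd10 at 5834 ± 923, the outer-membrane channels Vdac3 (3953 ± 188) and Vdac1 (3913 ± 2146), and the chaperonin Hspe1 (3876 ± 810). Mitochondrial ribosomal proteins numbered 3 of 78 (5 without GV 1 or GV 3): Mrps25 (5292 ± 2747), Mrps33 (3956 ± 988) and Mrps6 (3832 ± 510).

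Translation factors put 10 of 73 in the top 300. The elongation factor subunit Eef1d gave 6366, 6348 and 5997 (6237 ± 208), Tpt1 5741 ± 867, and Eef2k, the kinase that restrains elongation factor eEF2, 5604 ± 417. The nascent-chain protein Naca (5052 ± 772), the eIF2 subunit Eif2s2 (5035 ± 439) and the helicase Eif4a1 (4887 ± 469) came next. Pabpc1l, the oocyte's poly(A)-binding protein, gave 3509, 4481 and 4106 (4032 ± 491).

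Regulators of stored mRNA put 6 of 81 in the top 300. Zar1, a maternal-effect protein that binds mRNA, gave 7027, 7188 and 7913 (7376 ± 472, rank 32). Tent5c, a noncanonical poly(A) polymerase, gave 4879 ± 1473, the cold-shock protein Ybx3 4609 ± 334, G3bp2, of stress granules, 4546 ± 454 and Lsm14b 4287 ± 299. Pum3, at 7515 ± 1718, shares its symbol with the Pumilio regulators but is a nucleolar protein. Ybx2, known as the main mRNA-storage protein MSY2 of oocytes, was below the border at 3031 ± 436, as was Cpeb1, which directs cytoplasmic polyadenylation, at 2320 ± 179. Btg4, the adaptor for mRNA decay, which the symbol patterns counted among the cell cycle genes, was in the top 300 with 4912, 3637 and 2993 (3847 ± 977).

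Chromatin genes put 10 of 191 in the top 300. Dppa3, also called Stella, which protects the maternal genome's methylation in the zygote, gave 9394, 8704 and 8790 (8962 ± 376, rank 9). Dnmt1, the maintenance methyltransferase, gave 7958, 8383 and 6579 (7640 ± 943), and Uhrf1, its partner, 4401 ± 412. H1f8, the oocyte linker histone, gave 5051, 5591 and 5968 (5537 ± 461), Nap1l4, a histone chaperone, 5131 ± 309, and Hmgn1 7476 ± 3098, its highest value lying on GV 2. The symbol patterns also put Hmgcs1, an enzyme of sterol synthesis, and Dppa5a, an RNA-binding protein, in this class.

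Of cell cycle and spindle genes, 8 of 216 were in the top 300 (5 without GV 1). Securin, Pttg1, which holds separase in check, gave 8961, 8434 and 7956 (8450 ± 502, rank 14). A second probe set of Pttg1 gave 8306 ± 724, and the third, with no shared suffix, 9.77 ± 4.59. Cks2, a partner of CDK1, gave 6856, 5608 and 6455 (6307 ± 637), the condensin subunit Smc4 4572 ± 1141 and Cdk1 itself 5606, 2826 and 3687 (4040 ± 1423). Cdk1 was high on GV 1. Cdc20, the activator of the anaphase-promoting complex, which the symbol patterns counted in the ubiquitin and SUMO system, gave 3739, 899 and 6793 (3810 ± 2948), with GV 2 below 1000.

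Cytoskeletal genes numbered 14 of 304, led after Tmsb10 by the tubulins Tubb2a (6381 ± 891), Tubb4b (6259 ± 555), Tuba4a (5686 ± 1212) and Tubb2b (5019 ± 566) and by Cfl1 (6322 ± 60.5). Chaperones numbered 9 of 122, led by Hspa8 with 7907, 9296 and 7417 (8207 ± 974), the chaperonin subunit Cct3 (6125 ± 382) and Hsp90aa1 (5994 ± 1478). Vesicle traffic gave 9 of 425, with the cargo receptor Tmed9 (5737 ± 501) and clathrin light chain Clta (5170 ± 921) at its head. Transcription gave 8 of 627, with the coactivator Sub1 (7710, 7747 and 7248; 7568 ± 278), Eloc (7004 ± 296) and the polymerase subunit Polr2j (5540 ± 570). Nobox (3948 ± 639), Zfp57 (4040 ± 130), which guards imprints, and Sall4 (3766 ± 596) were the sequence-specific factors among these.

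Antioxidant enzymes numbered 7 of 81, with Sod1 at 8246, 8446 and 7969 (8220 ± 240, rank 18), Glrx5 (5653 ± 1694), Selenow (5223 ± 3961, high on GV 1 alone) and Gstm5 (5165 ± 351). Signalling genes gave 7 of 586, of which Ywhae (8246 ± 867), Ywhaz (5561 ± 849) and Ywhab (3928 ± 882) are 14-3-3 proteins. The class of RNA processing and splicing gave 5 of 233, led by Hnrnpab (6769 ± 1704), whose second brightest probe set had a mean of 538. The symbol patterns missed some splicing factors, among them Bud31 at rank 1, so this is not a count of all of them. Metabolism of lipids, nucleotides and amino acids gave 5 of 132, led by Mat2b (6021 ± 452). Glycolysis gave 2 of 40, Ldhb and Mdh1 (4516 ± 561), and the class median was 154. The proteasome gave 1 of 51, Psma2 at 4386 ± 378, although 31 of the 51 reached 1000. Nuclear transport gave Nup85 and Ran, 2 of 63, and replication and repair gave Rpa1, 1 of 120; the counts of these 3 classes moved between 1 and 4 when an array was left out.

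The 105 members outside the classes were grouped by known function after their ranks were known. RNA processing, ribosome assembly and translation took 17, among them Bud31, the ribosome-assembly factors Noc4l (6033 ± 782) and Rpf2 (6030 ± 1344), and the poly(A)-binding-protein partners Paip1 (5004 ± 1191), Paip2 (4941 ± 619) and Paip2b (4420 ± 653). Metabolic and lipid proteins took 21, led by Bpgm (7306 ± 1561), the red-cell enzyme that makes bisphosphoglycerate. Germ cell and oocyte paralogues took 7, with Elobl, the chromatin reader Spin1 (7885, 7990 and 7022; 7632 ± 531), Syce2 of the synaptonemal complex (4897 ± 1524) and Bcl2l10 (4170 ± 374). Membrane and secretory proteins took 14, transcription and chromatin 9, ubiquitin ligases and related proteins 8, cell division and DNA damage 7, signalling and adhesion 7, and mitochondria 6, and for 7 no function is described here. The remaining 2 are secreted proteins best known from pancreas and liver: the digestive enzyme carboxypeptidase Cpa1 (6543, 3723 and 4769; 5012 ± 1426) and the lectin Mbl2 (3878, 4082 and 3513; 3825 ± 288).

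Known oocyte genes were seldom near background. Of the 156 panel genes, 141 were measured, 37 were in the top 300, 82 reached 1000 and 9 lay below 16. That is 6.38% below 16, against 34.96% of all genes. Of the 15 not measured, Oog1, Oog2 and Obox1 are on probe sets that carry several symbols, and the other 12 have no probe set with that single symbol and were not analysed here.

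**Figure D5:**
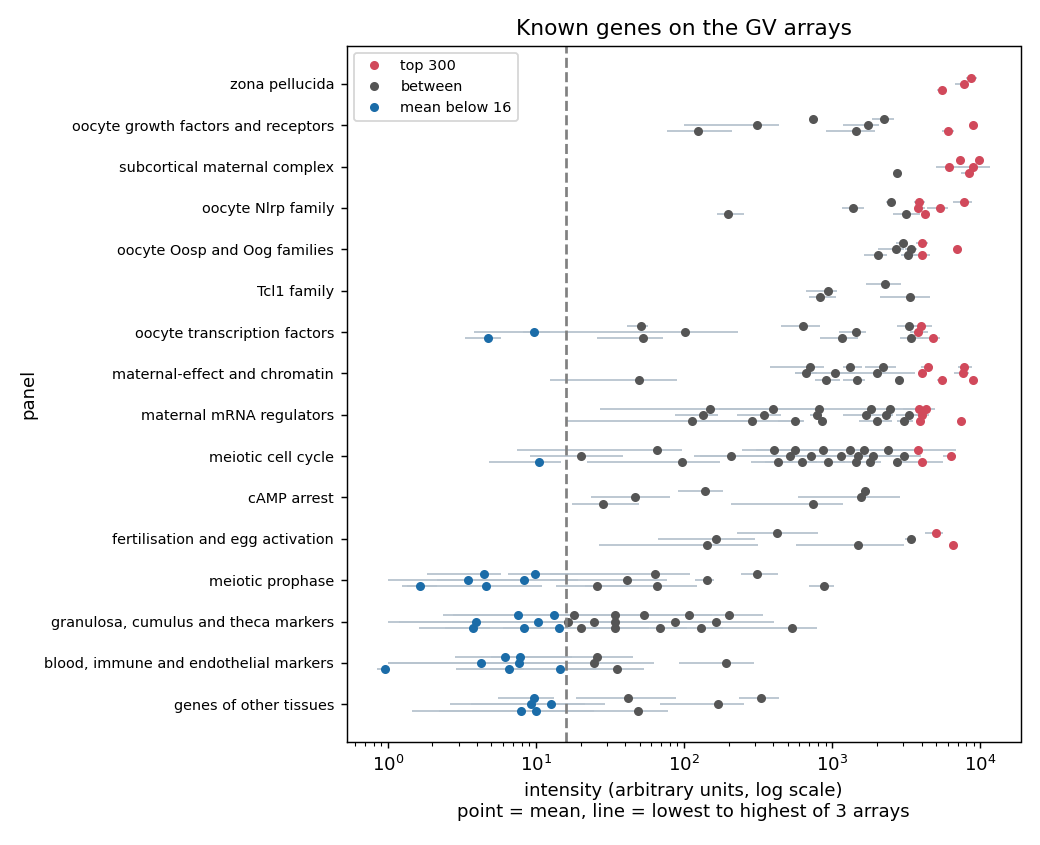
Mean intensity (points, arbitrary units, log scale) and the range of the 3 GV arrays (lines) of the measured genes in 13 oocyte panels and 3 panels of other cells, coloured by place in the ranking, with 16 dashed. The zona, subcortical complex, Oosp, Oog and Tcl1 panels have means of 822 or more, and the meiotic prophase panel spans 1.65 to 879.

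Of the 9 genes below 16, 6 belong to the panel of meiotic prophase, most of which in mice takes place in the ovary before birth. The panel had 13 genes measured, so 46.2% of it lay below 16, beside 34.96% of all genes. The 6 were Spo11, which makes the meiotic DNA breaks, at 1.65 ± 0.424, Stra8, which starts meiosis, at 3.49 ± 3.71, Hormad1 of the chromosome axis at 4.45 ± 2.25, Meioc at 4.63 ± 5.49, and the crossover proteins Mlh3 at 8.33 ± 9.53 and Msh5 at 9.90 ± 5.82. Mlh3 reached 19.3 on GV 3 and Msh5 16.6 on GV 1, and the other 4 were below 16 on every array. Of the 7 other genes of the panel, the highest was Sycp3, an axis protein, with 696, 915 and 1026 (879 ± 168), and Dmc1, the meiotic recombinase, gave 25.6 ± 14.7. The panel does not hold every prophase gene: Syce2 of the synaptonemal complex (4897 ± 1524) and Cntd1, known from crossover formation (3818 ± 672), lie outside it and are in the top 300. Outside the prophase panel, 3 of 128 measured genes lay below 16.

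Those 3 were Obox3 (3.33, 5.80 and 5.19; 4.77 ± 1.29), Obox6 (12.37, 8.47 and 8.13; 9.66 ± 2.36) and Fbxo43 (14.7, 4.82 and 12.1; 10.6 ± 5.13). Fbxo43 is EMI2, the inhibitor of the anaphase-promoting complex that holds the egg at metaphase II. Each was below 16 on every array and each is read by a single probe set. A low value at a single probe set cannot be told apart from a probe set that does not hybridise well. The related Obox2 gave 5354, 4982 and 4056 (4797 ± 668), on a probe set with a shared suffix, and Obox5 gave 1439 ± 306.

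Outside the prophase panel, Rec8 and Gpr12 lay closest above the threshold among the oocyte genes. The meiotic cohesin Rec8 gave 12.39, 9.15 and 38.5 (20.01 ± 16.1), above 16 on GV 3 alone. Gpr12 gave 28.5 ± 18.03, whereas its relative Gpr3, the receptor that keeps cAMP high in the arrested oocyte, gave 1226, 2856 and 584 (1556 ± 1171). Near the median of all genes (47.2), the adenylyl cyclase Adcy3 gave 46.7 ± 29.6, the de novo methyltransferase Dnmt3b 49.7 ± 38.4 and the early oocyte factors Sohlh1 and Sohlh2 50.8 ± 8.59 and 53.1 ± 24.3. Their partners in the same panels were brighter, with Dnmt3a at 2825 ± 186, Dnmt3l at 1042 ± 441 and Lhx8 at 3396 ± 625.

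Other panel genes are given here for their known roles in maturation, growth or fertilisation. Mos gave 1226, 987 and 576, the cyclin Ccnb2 1624 ± 359, Plk1 1391, 2188 and 3599 (2393 ± 1118), the Aurora kinases Aurka 2753 ± 42.8 and Aurkc 3036 ± 957, and Aurkb 96.6 ± 77.0. Kit, the receptor for granulosa-cell Kit ligand, gave 1444 ± 524, and Gja4, the connexin of oocyte gap junctions, 2228 ± 371. Plat, a protease whose message is stored in the GV oocyte and known for polyadenylation at maturation, gave 3097, 3474 and 3628 (3399 ± 273). It lay at rank 344, close to the border. Lower were Cd81 at 163 ± 121 and the storage helicase Ddx6 with 38.5, 15.9 and 285 (113 ± 149), against Cd9, needed for gamete fusion, with 869, 571 and 3036 (1492 ± 1346).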

How the data were processed

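Per the labels' protocols, polysome-bound mRNA of GV oocytes was purified, reverse-transcribed, linearly amplified, and its cDNA fragmented, labelled with biotin and hybridised. The authors deposited 1 intensity on a linear scale per probe set and array. How probes were corrected, summarised and scaled: not given in the sources used here. Without detection calls in the table, 16 serves as a working threshold, and the 3 arrays limit the precision.

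Of 45101 probe sets, 64 controls were left out; 34945 had a single gene symbol in the platform annotation, 932 several and 9160 none. Those with a single symbol gave 18193 genes, 9010 of them with several probe sets, each gene taking its brightest on the GV arrays. RefSeq (GRCm38.p6) held 18033 of the genes, changed 0 symbols, and gave gene order and promoter windows; the array names no build. Values were averaged without further normalization, ranked and classed by symbol patterns with Python 3.11.15, pandas 2.3.3 and numpy 2.4.6. The ranking code was run on simulated data in which the second probe set of each gene lay at a fixed lower level before noise. That checks the code and not how well the order holds on these arrays. With 3 arrays of 1 stage there is no test. SDs are sample SDs of 3 arrays.

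The members, classes, panels and sequences were chosen with earlier results of these data known. Genes named are the 30 brightest, up to 6 per class, any panel gene and all below 16, the border genes, the 5 widest and 5 narrowest spreads, and genes outside the classes with a sure function; others are said to be named after their values were seen. Alternatives left out each array, averaged all probe sets, used quantile normalization or a geometric mean (of intensity + 16), dropped _x, _s and _a probe sets, changed the threshold to 8 or 32 or required it on all 3 arrays, and took the top 100 or 1000. The median of arrays was added after seeing the data.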

Additional observations from a re-analysis of the deposited data

How the results depend on the processing

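Leaving out 1 array in turn kept 262 to 269 of the 300 members, put 63% to 67.3% of the top 300 in a class (65% with all arrays), moved the signal at rank 300 between 3612 and 3798 (3614), and gave 9 to 10 known oocyte genes below 16 (9). Quantile normalization kept 300 members, the geometric mean 288, the median of arrays 280 and the mean of all probe sets 210. The mean of all probe sets put 69% in classes and lowered the signal at rank 300 to 2773, since dimmer probe sets enter. Without _x, _s and _a probe sets 159 members were kept, with 60.3% in classes. Of the 100 brightest genes 77% were in classes, and of the 1000 brightest 55.8%. Thresholds of 8 and 32 gave 5 and 12 known genes below them, 7 were below 16 on all 3 arrays, and 8 of 121 without _x, _s and _a probe sets. Of 184 class counts under alternatives, 17 moved by over 1.5 times. Of 232 ranks of the 30 brightest genes, 9 fell out of the top 300, 8 of them without _x, _s and _a probe sets and that of Tacc3, at 310, by the median of arrays. The median was taken on the probe set chosen by the mean, which for Tacc3 was the one high on GV 1 alone. The cause of the other moves was not tested. No paired analysis was possible because a single group was described and nothing was compared. Signal near background limits what can be said of genes below 16.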

Other observations

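Many bright probe sets have no place in the ranking. Of 507 probe sets at or above the signal of rank 300, 404 carry a single symbol, 73 carry several and 30 none. The brightest with no symbol gave 10459, 10164 and 8727 (9783 ± 927, SD, n = 3), and the brightest with several had a mean of 8547.

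Probe sets of a member often disagree. Of the 201 members with several, the second brightest was at or above the signal of rank 300 in 71, below 1000 in 46 and below 16 in 9. In 56 members some probe set lay below 16. A probe set with a shared suffix stood for 56% of the members and for 21.5% of all genes. Among the members the suffix was _a in 80, _s in 39 and _x in 49, and shared transcripts may be of the same gene. Ehf, an epithelial transcription factor, is a member at 3698 ± 305, and its other 3 probe sets had means of 870, 228 and 5.91.

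Members chosen on 2 arrays were read on the third. Of the 300 brightest genes by GV 2 and GV 3, 201 were among the 300 brightest of GV 1; the counts were 203 for GV 2 and 209 for GV 3. Of these genes, 14, 18 and 9 lay below 1000 on the array not used, and 0 below 16. The median span of a gene from start to end in RefSeq was 13490 bp for the members, 22646 bp for the other genes at 1000 or more and 20210 bp for all measured genes with a span. Of 296 members that RefSeq lists as coding, 33 lie next to another member, in 16 runs. No such share was taken for other genes, so the count has no baseline. Some runs hold genes of the same family, such as Fbxw, whose probe sets may share target RNA.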
